A study of Danio rerio with 6 samples.

Results

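In the whole bodies of adult female zebrafish (Danio rerio), 79 of the 13927 transcripts in the expression table (0.567%) were very abundant, while the same transcripts were at least 50 times lower in every juvenile and every adult male. These female-abundant transcripts were chosen by 3 thresholds on the measured values. The lower of the 2 females had to reach 2000 normalised counts, it had to be at least 50 times the highest of the other 4 fish, and that highest fish had to be above 5 normalised counts. A normalised count is a number of reads divided by a size factor for the fish, so that 1 read was worth between 0.799 and 1.41 normalised counts here. In all, 82 transcripts met the thresholds, and 3 of them were left out by name. The excess in females is thus what chose these transcripts, and their female values are given as a description, with no test.

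In adult female zebrafish the ovary is a large organ that holds oocytes at many stages of growth, and a breeding female fills a good part of its body cavity with them. Growing oocytes store large amounts of RNA. This maternal RNA is laid down before fertilisation and serves the early embryo until its own genome is switched on. Zebrafish have no ovary in the adult male, and in juveniles the gonad is small and, in domesticated strains, passes through an ovary-like state before it becomes an ovary or a testis. Transcripts of the growing oocyte are for this reason familiar female markers in this species. Not all female markers come from the ovary. The paper describes vitellogenins as female-specific lipoproteins made in the liver, and reports more vtg1 in females than in males. The transcripts described here carry identifiers of an assembly (MSTRG, a locus number and a transcript number) and the table pairs no gene names with them. Whether they come from the ovary was therefore not checked against marker genes, and no role is given for any of them.

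The fish were 2 adult females, 2 juveniles at 28 days post-fertilisation (dpf) and 2 adult males, each sequenced as a whole body and each giving 1 library. All had been euthanised by the breeder, and none was treated. The main aim of the study was to learn, from the literature, whether drugs alter sex-specific genes of juveniles. The fish were sequenced to find genes that differ between the sexes and to see whether sex shows in juveniles. Strain, adult age and the sex of the juveniles are not given in the labels. The paper assumes, from expression in these same fish, that both juveniles were male, which was not checked here. The juvenile columns are numbered 2 and 3, and these numbers are used below.

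The table held 18439319 and 15947424 reads of the females, 17243855 and 18635087 reads of the juveniles, and 13980849 and 15881031 reads of the males. These reads are part of each library, since every transcript listed had an adjusted p under 0.05 in the comparison made before deposition. With 2 fish in a group, differences could only be read against the spread between those fish. In whole bodies, fewer cells of a type and less RNA per cell cannot be told apart.

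The 79 transcripts took up 9.26% of the table's reads in female 1 and 9.13% in female 2. In juvenile 2 and juvenile 3 their share was 0.00895% and 0.0111%. In male 1 and male 2 it was 0.0643% and 0.0232%. The females were nearly alike, at 9.19% ± 0.0871 (SD, n = 2), while the males differed from each other more than the juveniles did. The Wilson 95% intervals were 9.24% to 9.27% and 9.12% to 9.15% in the females, 0.00852% to 0.00941% and 0.0106% to 0.0116% in the juveniles, and 0.0630% to 0.0656% and 0.0225% to 0.0240% in the males. They cover counting error only. In reads, the transcripts were counted 1706715 and 1456431 times in the females, 1544 and 2069 times in the juveniles, and 8989 and 3685 times in the males. The mean female share was 1027 and 828 times the shares of juvenile 2 and juvenile 3, and 143 and 396 times those of male 1 and male 2.

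**Figure D1:**
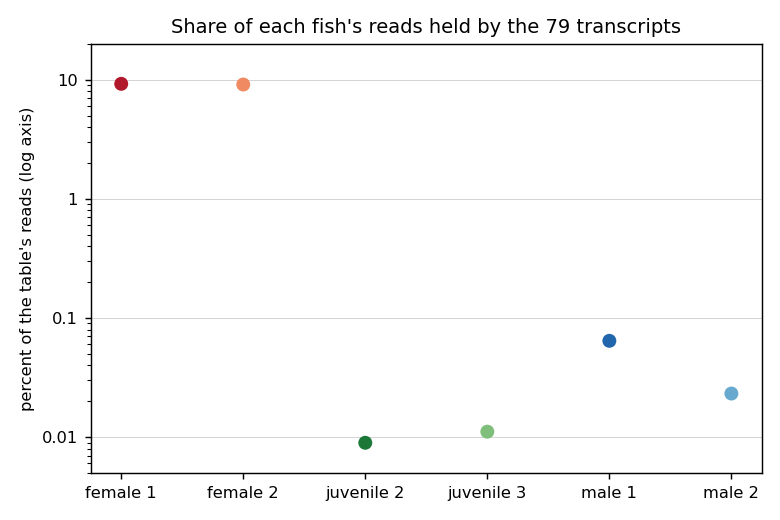
Percent of the table's reads held by the 79 female-abundant transcripts in each fish, on a log axis; the Wilson 95% intervals are smaller than the points. Both females sit just above 9%, both juveniles near 0.01%, and the males at 0.0643% and 0.0232%.

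This signal was unevenly spread over the 79 transcripts. The mean of the females ran from 2167 to 221641 normalised counts, with a median of 13198 and quartiles of 4806 and 28306. The most abundant transcript alone held 11.0% of the females' signal over the 79, the first 5 held 37.1%, the first 10 held 52.2% and the first 40 held 88.7%. Among the 10 transcripts of the whole table with the highest female mean, 3 were of this set, as were 23 of the first 100. The same transcripts did not lead in every fish. The 5 highest of each fish held 39.3% and 35.0% of its summed signal in the females, 43.5% and 42.7% in the juveniles, and 23.7% and 31.2% in the males.

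The most abundant, MSTRG.14894.1, had 244904 and 198379 normalised counts in the females, 36.0 and 4.63 in the juveniles, and 58.7 and 19.2 in the males. Its lower female was 3379.5 times its highest other fish, the widest gap of the set. MSTRG.2973.1 had 138815 and 169055 normalised counts in the females, 13.8 and 15.7 in the juveniles, and 454 and 55.1 in the males. The value in male 1 was the highest that any of the 79 transcripts reached outside the females. MSTRG.15261.1 had 145517 and 155432 normalised counts in the females, 19.0 and 32.4 in the juveniles, and 330.0 and 127 in the males. MSTRG.16632.1 had 144831 and 83504 normalised counts in the females, 79.4 and 45.3 in the juveniles, and 294 and 139 in the males. Its females lay 1.73-fold apart, against less than 1.3-fold for the other 4 of the first 5. MSTRG.17042.1 had 104405 and 111750 normalised counts in the females, 67.7 and 117 in the juveniles, and 385 and 144 in the males. In each of these 5, both females lay at least 271 times above every other fish, and male 1 lay above male 2.

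The next 5 by female mean were MSTRG.15263.2, MSTRG.2111.1, MSTRG.843.1, MSTRG.26864.1 and MSTRG.14320.1. In the females they were between 46706 normalised counts, in MSTRG.14320.1, and 79235, in MSTRG.2111.1. In the juveniles they were between 5.55, in MSTRG.26864.1, and 40.7, in MSTRG.2111.1. In the males they were between 17.6, in MSTRG.15263.2, and 290.0, in MSTRG.2111.1. All 5 had both juveniles below both males.

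**Figure D2:**
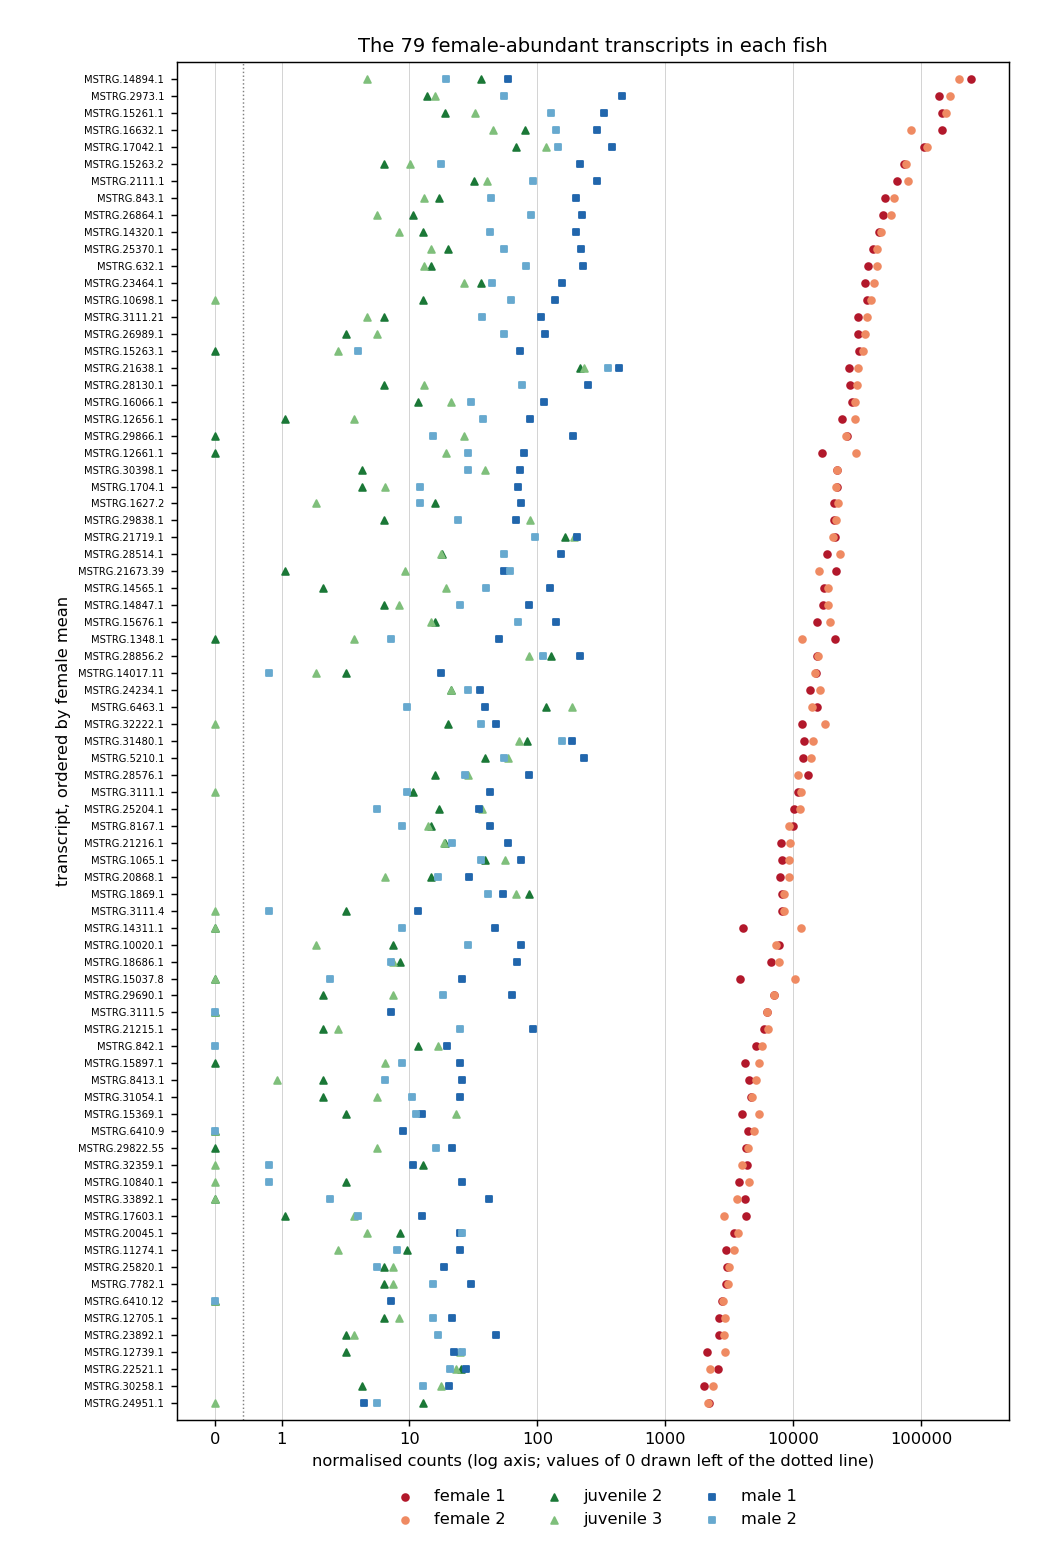
Normalised counts of the 79 female-abundant transcripts (rows, ordered by female mean) in each of the 6 fish, on a log axis, with values of 0 drawn left of the dotted line. The females (circles) run from 2167 to 221641 in their mean, far to the right of the juveniles (triangles) and males (squares), and male 1 is the highest of the other fish in 69 rows.

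The females differed little from each other over most of the set. The median fold between them was 1.12, close to the 1.11 of the 2326 transcripts with both females at 2000 normalised counts or more. For 69 of the 79 transcripts the females were within 1.3-fold. In 6 of the 79 (7.59%) they were 1.5-fold or more apart, against 3.78% of those 2326 transcripts. Female 1 was above female 2 in 19 of the 79 (24.1%), against 31.0% of the 2326, and the median ratio of female 1 to female 2 was 0.93 in the set and 0.94 in the 2326.

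The widest gaps ran both ways. MSTRG.14311.1 had 4047 normalised counts in female 1 and 11562 in female 2, and MSTRG.15037.8 had 3853 and 10319. Both were at 0 in the 2 juveniles. MSTRG.12661.1 had 16787 and 30900 normalised counts in the females, 0 and 19.4 in the juveniles, and 78.3 and 28.8 in the males. MSTRG.32222.1 and MSTRG.12739.1 were also lower in female 1, at 0.665 and 0.724 of female 2. In the other direction, MSTRG.1348.1 had 21353 normalised counts in female 1 and 11690 in female 2, beside 0 and 3.70 in the juveniles and 49.8 and 7.19 in the males. MSTRG.16632.1, MSTRG.17603.1 and MSTRG.21673.39 followed, with female 1 at 1.73, 1.48 and 1.37 times female 2. With 1 library for each female, such gaps could not be set against an error within a female.

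Outside the females the transcripts were low but mostly not absent. Some presence was built in, since the rule asks for more than 5 normalised counts in the highest juvenile or male. That fish was male 1 for 69 of the 79. As a percent of the female mean, the median level was 0.0450% in juvenile 2 and 0.0723% in juvenile 3, against 0.418% in male 1 and 0.138% in male 2. The highest level was 1.06% and 1.27% in the juveniles, and 1.79% and 1.20% in the males, and the rule itself keeps every level under about 2%. These percents rest on the deposited scaling, and other scalings put the females lower against the males. Male 1 had reads of all 79 transcripts. Male 2 was at 0 for 4 of them, juvenile 2 for 12 and juvenile 3 for 13. Counts of 3 reads or fewer were found for 27 and 20 transcripts in the juveniles, and for 0 and 10 in male 1 and male 2. For 37 of the 79, all 4 of these fish were above 5 normalised counts.

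Over the 79 transcripts, the level in male 1 followed the female mean, with a Spearman correlation of 0.828. It was 0.646 for male 2, 0.359 for juvenile 2 and 0.350 for juvenile 3. Between the males the correlation over the transcripts was 0.842, and between the juveniles 0.590. These are descriptions across transcripts of the same 6 libraries, the rule ties the levels together by its ratio, and values in juveniles often rest on a few reads.

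**Figure D3:**
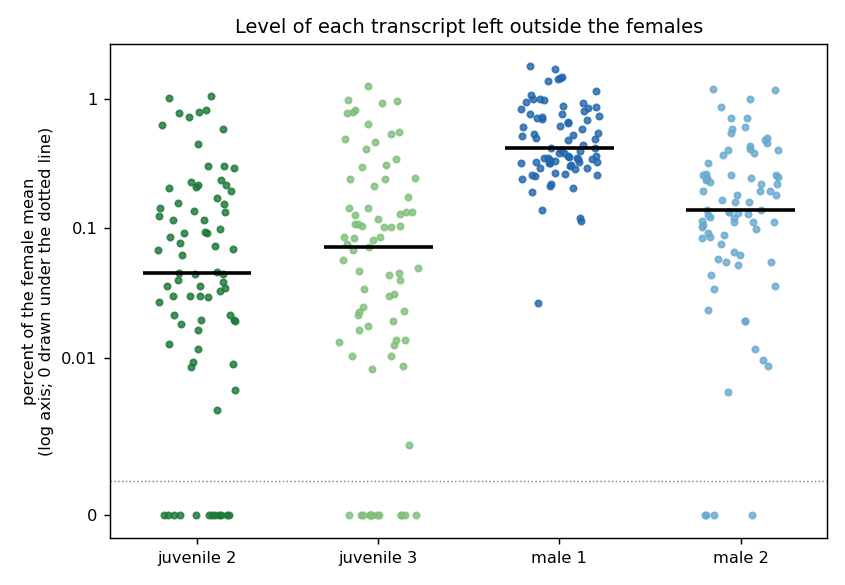
Level of each of the 79 transcripts in the juveniles and males as a percent of its female mean (log axis; values of 0 are drawn under the dotted line, black bars are medians). The medians are 0.0450% and 0.0723% in the juveniles, and 0.418% and 0.138% in the males.

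The transcripts with the most left in the juveniles had it in both fish. MSTRG.6463.1 had 15238 and 14098 normalised counts in the females, 116 and 187 in the juveniles, and 39.1 and 9.59 in the males, so that the juveniles were at 1.03% of the females. MSTRG.22521.1 had 2571 and 2235 normalised counts in the females, 25.4 and 23.1 in the juveniles, and 27.6 and 20.8 in the males. MSTRG.1869.1 had 8212 and 8521 in the females, 85.7 and 68.5 in the juveniles, and 54.3 and 40.8 in the males. Of these, MSTRG.6463.1 and MSTRG.1869.1 had both juveniles above both males, and in MSTRG.22521.1 the juveniles lay between the males. MSTRG.21719.1 kept 163 and 193 normalised counts in the juveniles and 205 and 95.9 in the males, beside 21315 and 20411 in the females. MSTRG.21638.1 kept 217 and 232 normalised counts in the juveniles and 432 and 354 in the males, beside 27199 and 31951 in the females.

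MSTRG.21638.1 also had the highest male mean relative to the females, at 1.33%. MSTRG.31480.1 was next at 1.30%, with 12072 and 14324 normalised counts in the females, 83.6 and 71.3 in the juveniles, and 188 and 155 in the males. In both, the 2 males were within 1.3-fold, unlike most of the set. MSTRG.23892.1, MSTRG.5210.1 and MSTRG.28856.2 followed, with male means at 1.16%, 1.11% and 1.05% of the female means. In MSTRG.5210.1 this came mainly from male 1, which had 229 normalised counts against 55.1 in male 2.

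At the low end, 6 of the 79 transcripts had no read in either juvenile, where 3 reads over both fish are worth 1.48 normalised counts. These were MSTRG.14311.1, MSTRG.15037.8, MSTRG.33892.1, MSTRG.3111.5, MSTRG.6410.9 and MSTRG.6410.12. MSTRG.3111.5 had 6228 and 6195 normalised counts in the females, and MSTRG.33892.1 had 4160 and 3602, so that abundant female transcripts were not detectable in the juveniles at this depth. In MSTRG.3111.5 and MSTRG.6410.9, male 2 was at 0 as well, and male 1 had 7.12 and 8.89 normalised counts. The lowest male mean relative to the females was that of MSTRG.14894.1, at 0.0176%. MSTRG.3111.5, MSTRG.14017.11, MSTRG.3111.4 and MSTRG.6410.9 followed, at between 0.0573% and 0.0955%, and male 2 had at most 1 read of each of these 4.

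Male 1 had more of the female-abundant transcripts than male 2. Summed over the set, male 1 had 2.72 times the normalised counts of male 2. Male 1 was above male 2 in 75 of the 79 (94.9%), against 49.2% of the 13748 transcripts tested, those that reached 10 normalised counts in 2 fish or more. It was 2-fold or more above male 2 in 61 (77.2%), against 10.6% of all transcripts tested. Male 2 was 2-fold or more above male 1 in 0 of the 79, against 8.07% of all transcripts tested. The median ratio of male 1 to male 2 was 2.93 over the 75 transcripts with reads in male 2, and 0.993 over the table. Over the 8368 transcripts whose male mean lay in the range of the set it was 0.997. With 1 fish on each side this difference between the males has no replicate check, and the minimum of 5 normalised counts was met through male 1 alone for 10 of the 79.

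The higher level in male 1 was also seen where counts were larger. For the 61 transcripts with at least 10 reads in each male, male 1 was higher in 58 and the median ratio was 2.72, against 0.996 over the 12006 such transcripts of the table. Among these 61, the ratio was highest in MSTRG.29866.1, at 189 normalised counts in male 1 against 15.2 in male 2, MSTRG.15263.2, with 216 and 17.6, and MSTRG.2973.1, with 454 and 55.1. MSTRG.1627.2 and MSTRG.1704.1 followed, at 6.23 and 5.94. It was lowest in MSTRG.12739.1, at 22.2 normalised counts against 25.6, MSTRG.21673.39, with 55.1 and 60.7, and MSTRG.20045.1, with 24.9 and 25.6. MSTRG.15369.1 and MSTRG.31480.1, at 1.11 and 1.21, were the next lowest. The males were thus close to each other in a few transcripts and more than 10-fold apart in others.

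Transcripts with high female values but a smaller excess differed less between the males. Where both females reached 2000 normalised counts and were 10 to 50 times the highest other fish, 121 transcripts had a median ratio of male 1 to male 2 of 1.17, and male 1 was higher in 72.7% of them. Where they were 2 to 10 times the highest other fish, 1186 transcripts had a median ratio of 1.02, and male 1 was higher in 53.5%. The source of the difference between the males was not tested.

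**Figure D4:**
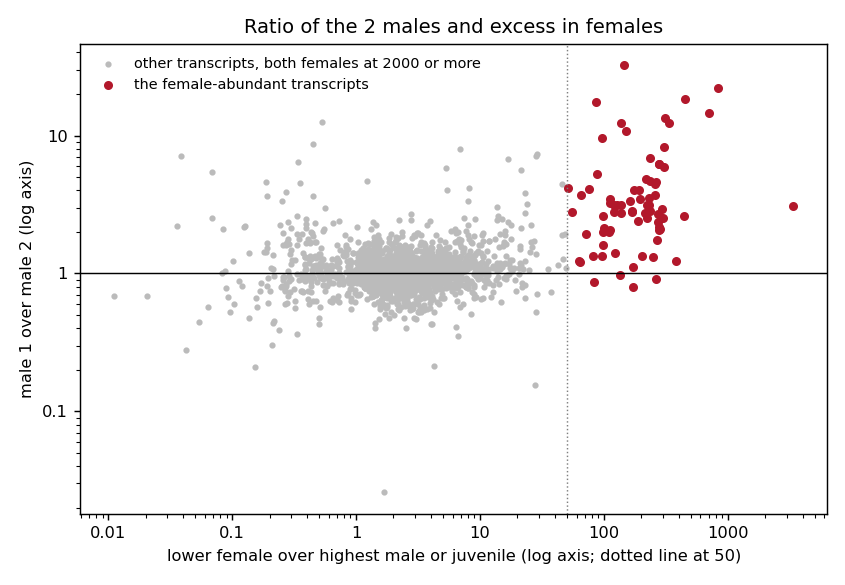
Ratio of male 1 to male 2 (log axis) against the ratio of the lower female to the highest juvenile or male (log axis) for transcripts with both females at 2000 normalised counts or more and reads in both males, with the dotted line at the threshold of 50. The female-abundant transcripts (red) lie mostly above a ratio of 1, with a median of 2.93. Other transcripts (grey) are drawn at any female excess where the highest juvenile or male was above 5 normalised counts. The median was 1.02 for transcripts 2 to 10 times higher in females, and 1.17 for those 10 to 50 times higher.

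Juveniles were then compared with adult males. The thresholds took the highest of these 4 fish whichever group it was in, so the values compared were in part used to choose the transcripts, and the calls are read as a description of this set. Male 1 was that highest fish in 69 of the 79. Of the 79 transcripts, 31 (39.2%) were lower in juveniles than in males and 1 (1.27%) was higher, at an adjusted p under 0.05 by limma. Over all 13748 transcripts tested, 16.2% were lower and 18.6% were higher. That fit pooled the spread over all 6 fish, females included. With only juveniles and males fitted, 10 of the 79 (12.7%) were lower, against 12.4% of all transcripts tested. The transcripts tested were already listed for a difference before deposition, and are not all that the fish express. The median log2 fold change of juveniles against males was -1.83 over the set and 0.11 over all transcripts tested. It was -2.11 from group means with the 6 transcripts at 0 in both juveniles set to the floor of 3 reads. The fitted value was negative for 73 of the 79 (92.4%), against 44.9% of all transcripts tested, and 44 (55.7%) were lower at an unadjusted p under 0.05 by limma, against 20.8%. Both juveniles lay below both males in 48 (60.8%), against 31.6% of all transcripts tested, and above both males in 2 (2.53%), against 41.1%. All 79 passed the filter on low values through the females, and 61 had 10 normalised counts in at least 2 of the 4 fish compared. The minimum of 5 normalised counts was met in a male but in no juvenile for 16 transcripts, and for these the choice itself favours a lower level in juveniles. Of the 31 called lower, 26 were above 5 in a juvenile and 5 were of this kind, namely MSTRG.12656.1, MSTRG.14311.1, MSTRG.21215.1, MSTRG.23892.1 and MSTRG.8413.1. No p is given for these 5.

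The number of calls depended on which fish set the spread. When only juveniles and males were fitted, 10 of the 79 (12.7%) were lower by limma, against 12.4% of all transcripts tested, so that the share in the set was then close to that of the table. Without male 1, 19 were lower (24.1%) against 10.8%. Without male 2, 45 were lower (57.0%) against 13.2%. Without juvenile 2 or juvenile 3, 17 and 18 of the 79 were lower, against 10.7% and 8.55% of all transcripts tested. The median log2 fold change was -1.04 without male 1 and -3.02 without male 2. Leaving out either male thus moved the size of the median but not its sign.

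The lowest fitted values among the called transcripts were those of MSTRG.10698.1, MSTRG.14311.1, MSTRG.12656.1, MSTRG.26864.1 and MSTRG.26989.1. MSTRG.12656.1 had 24191 and 30124 normalised counts in the females, 1.06 and 3.70 in the juveniles, and 88.1 and 37.6 in the males, a log2 fold change of juveniles against males of -4.24 (SE 0.555). MSTRG.26864.1 had 49920 and 57639 normalised counts in the females, 10.6 and 5.55 in the juveniles, and 225 and 88.7 in the males, a log2 fold change of -4.03 (SE 0.483, adjusted p = 0.00301 by limma). MSTRG.26989.1 had 32117 and 36309 normalised counts in the females, 3.17 and 5.55 in the juveniles, and 115 and 55.1 in the males, a log2 fold change of -3.95 (SE 0.417, adjusted p = 0.00208 by limma). In all 3, each juvenile was far below each male. The juvenile values rest on few reads, 10 and 6 in MSTRG.26864.1 and 3 and 6 in MSTRG.26989.1. With only juveniles and males fitted, the adjusted p of these 2 transcripts rose to 0.0326 and 0.02655 by limma.

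MSTRG.10698.1 had 37573 and 40335 normalised counts in the females, 12.7 and 0 in the juveniles, and 136 and 62.3 in the males, with a log2 fold change of -4.65 (SE 1.14, adjusted p = 0.0248 by limma). Its juveniles differed, and the standard error was large. With only juveniles and males fitted, its call was lost (adjusted p = 0.0976 by limma). The call was also lost when either male was left out. MSTRG.14311.1 was at 0 in both juveniles and had 46.3 and 8.79 normalised counts in the males. Against the floor of 3 reads over both juveniles, its male mean was at least 18.6-fold higher. It passed the filter on low values through the females and met the minimum of 5 through the males, so its lower level in juveniles follows in part from the choice.

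For 9 transcripts the lower level in juveniles was called under all 16 alternatives, including each fit without 1 fish. These 9, picked out after their values were seen, were MSTRG.12656.1, MSTRG.15261.1, MSTRG.15676.1, MSTRG.21215.1, MSTRG.26864.1, MSTRG.26989.1, MSTRG.28130.1, MSTRG.3111.21 and MSTRG.632.1. The same count was not taken over all transcripts tested, so it cannot be said whether 9 is many for a set of this size. MSTRG.12656.1 and MSTRG.21215.1 met the minimum of 5 only through the males, so that for them the choice favoured a lower level in juveniles, and the others were above 5 in a juvenile. MSTRG.632.1 had 38347 and 44939 normalised counts in the females, 14.8 and 13.0 in the juveniles, and 229 and 81.5 in the males. MSTRG.28130.1 had 27759 and 31280 in the females, 6.35 and 13.0 in the juveniles, and 247 and 75.9 in the males. MSTRG.15676.1 had 15416 and 19357 in the females, 15.9 and 14.8 in the juveniles, and 140 and 70.3 in the males. MSTRG.21215.1, with the lowest female level of the 9, had 5951 and 6336 normalised counts in the females, 2.12 and 2.78 in the juveniles, and 91.6 and 24.8 in the males. Their log2 fold changes of juveniles against males lay between -4.24 in MSTRG.12656.1 and -2.62 in MSTRG.15676.1. No juvenile overlapped a male in any of the 9, a separation that the way they were picked largely builds in.

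MSTRG.6463.1 was the one transcript called higher in juveniles than in males by limma with all fish in the fit. With the values given above, its log2 fold change was 2.85 (SE 0.610, adjusted p = 0.0163 by limma), and both juveniles lay above both males. The call was lost when either juvenile was left out and when only juveniles and males were fitted. The other transcript with both juveniles above both males, MSTRG.1869.1, had a log2 fold change of 0.69 (SE 0.247, adjusted p = 0.0738 by limma). It was called higher by edgeR and by DESeq2. At the other end of the called transcripts, MSTRG.21638.1 and MSTRG.31480.1 had the smallest falls, at -0.80 (SE 0.169) and -1.13 (SE 0.202) on the log2 scale (adjusted p = 0.0158 and 0.00928 by limma). Both calls were lost when only juveniles and males were fitted (adjusted p = 0.0517 and 0.0570 by limma). MSTRG.21638.1 also lost its call without male 1 and without either juvenile, and MSTRG.31480.1 without juvenile 3. Some abundant transcripts did not pass. MSTRG.14894.1, the most abundant in females, had a log2 fold change of -1.27 (SE 0.910, adjusted p = 0.311 by limma), and its juveniles overlapped its males.

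**Figure D5:**
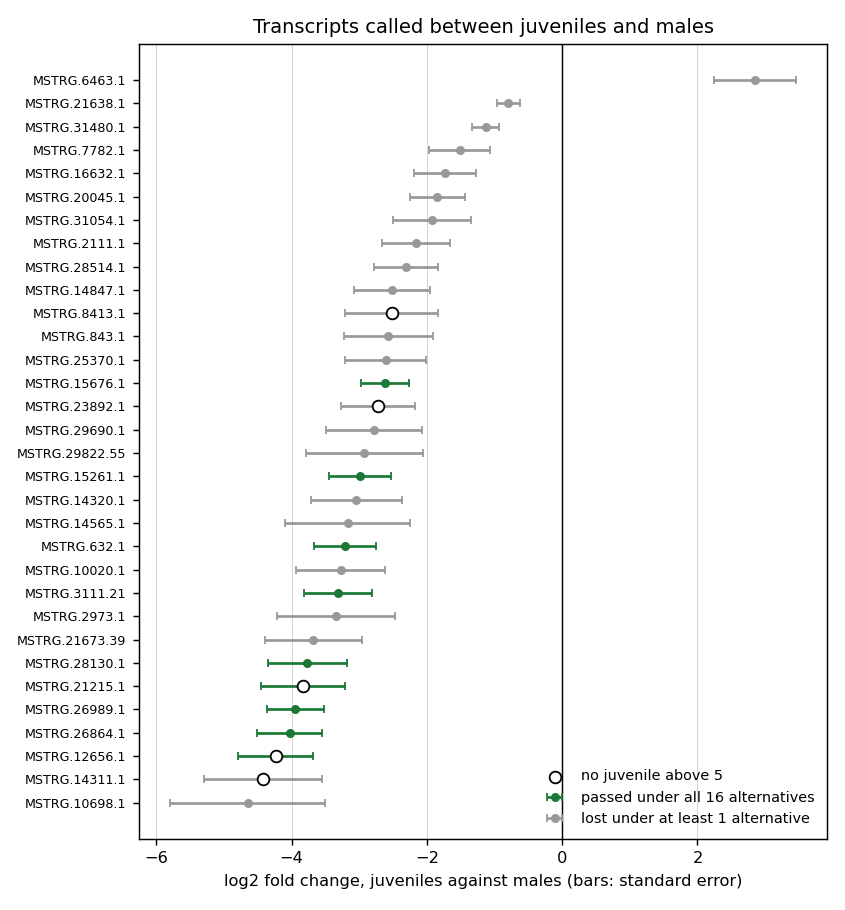
Fitted log2 fold change of juveniles against adult males, with its standard error, for the 32 female-abundant transcripts past an adjusted p of 0.05 by limma, green where the call held under all 16 alternatives and open circles where no juvenile was above 5 normalised counts. Values run from -4.65 in MSTRG.10698.1 to -0.80 in MSTRG.21638.1 for the 31 lower in juveniles, with MSTRG.6463.1 alone on the right at 2.85.

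The 79 transcripts came from 74 assembled loci of the 13580 in the table. At 3 loci more than 1 transcript was chosen, and these 8 transcripts may share sequence, so their values are not independent. Locus MSTRG.3111 gave 4. Its transcript MSTRG.3111.21 had 31885 and 37832 normalised counts in the females, 6.35 and 4.63 in the juveniles, and 108 and 36.8 in the males, and MSTRG.3111.1 had 10964 and 11438, 10.6 and 0, and 42.7 and 9.59 in the same fish. MSTRG.3111.4 and MSTRG.3111.5 had female means of 8298 and 6212. All 4 were at least 257 times higher in the lower female than in any other fish.

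Locus MSTRG.15263 gave 2 abundant transcripts. MSTRG.15263.1 had 32740 and 35226 normalised counts in the females, 0 and 2.78 in the juveniles, and 72.9 and 3.996 in the males. With MSTRG.15263.2 it had one of the widest gaps between the males. The third locus, MSTRG.6410, gave MSTRG.6410.9 and MSTRG.6410.12, both with no read in the juveniles or male 2.

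At 7 loci the table also held transcripts that were not chosen, 11 in all. Of these, 4 were also at least 50 times higher in the lower female than in the highest other fish, and 2 were at 0 in every juvenile and male. Another, MSTRG.15037.1, was 6.93 times higher, and the remaining 4, MSTRG.1627.1, MSTRG.30398.2, MSTRG.30398.6 and MSTRG.30398.7, were less than 2 times higher or were lower. MSTRG.1627.2 had 20893 and 22445 normalised counts in the females, 15.9 and 1.85 in the juveniles, and 74.7 and 11.99 in the males. From the same locus, MSTRG.1627.1 had 2423 and 2724 in the females, 1569 and 1318 in the juveniles, and 1572 and 1885 in the males. The first was thus 279.7 times higher in the lower female than in the highest other fish, and the second 1.29 times.

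Locus MSTRG.30398 was also split. MSTRG.30398.1 had 22045 and 22019 normalised counts in the females, 4.23 and 38.9 in the juveniles, and 72.9 and 28.8 in the males. Its companion MSTRG.30398.7 had 85.9 and 259 in the females, 622 and 526 in the juveniles, and 127 and 235 in the males, and was highest in the juveniles. At locus MSTRG.15037, 2 transcripts were not chosen. MSTRG.15037.1 had 80.1 normalised counts in female 1 and 5694 in female 2, a wider gap between the females than that of MSTRG.15037.8. MSTRG.15037.20 was higher in female 1, with 459.7 normalised counts against 259 in female 2. How reads shared by transcripts of a locus were divided is not stated, so the split within a locus is uncertain. The loci 842 and 843, 15261 and 15263, and 21215 and 21216 have numbers next to or near each other, but the table gives no positions.

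Some transcripts lay close to the thresholds. At the female minimum, MSTRG.30258.1 and MSTRG.12739.1 were just inside, with 2019 and 2134 normalised counts in the lower female, and MSTRG.26300.1 and MSTRG.32251.1 just outside, with 1976 and 1949. At the ratio of 50, MSTRG.5210.1 and MSTRG.23892.1 were just inside, at 51.5 and 55.5, and MSTRG.26295.1 and MSTRG.17854.1 just outside, at 49.7 and 48.8. At the minimum of 5 in the highest other fish, MSTRG.6410.12 and MSTRG.3111.5 were inside, with 7.12 normalised counts, and MSTRG.3112.9 and MSTRG.29530.13 were outside, with 4.45 and 3.56.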

How the data were processed

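Whole-body RNA of 2 adult female, 2 juvenile and 2 adult male zebrafish was sequenced. The authors mapped reads to GRCz11 with HISAT2 2.1.0, assembled transcripts with StringTie 1.3.4, counted them with featureCounts 1.6.3 and normalised with DESeq2 2.11.40.2. The deposited values are a signal, the read count that the authors scaled by each fish's size factor (median of ratios). Other deposited columns (the mean over fish, fold changes, standard errors, Wald statistics, p-values, a difference between the sexes and a selection mark) were not used, beyond checking that every transcript had an adjusted p under 0.05. The 2 juvenile columns carry the numbers 2 and 3, whereas the labels use 1 and 2, so each was assigned to its group only.

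The transcripts, lists and tests were chosen with earlier results of these data known. Lists of marker genes were not used, since the table pairs no names with identifiers, and no sequence or position was used. Named transcripts were the 10 highest by female mean, the 5 at each end of the female ratio, of the male and of the juvenile percent of the female mean, of the male ratio (at least 10 reads in each male) and of the called fold changes, up to 5 sharing a locus, and the 2 at each side of a threshold.

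Whole reads were recovered by dividing each value by the fish's smallest step, and 100.0% of values were whole within 0.01. A floor of 3 reads was 2.40 to 4.23 normalised counts in 1 fish. Juveniles and males were compared with limma 3.58.1 (R 4.3.3, limma-trend) on log2(value + 1), a scale that understates changes of low values. The fit used all 6 fish in 3 groups, with 3 residual degrees of freedom, and the 13748 transcripts that reached 10 normalised counts in 2 fish or more. Benjamini-Hochberg adjustment was applied at 0.05. Labels do not say more of the fish than sex and stage. The p-values use the spread within groups pooled over all 6 fish and drawn towards a trend over transcripts, not only that of the juveniles and males. On the recovered reads, edgeR 4.0.16 called 33 of the 79 transcripts lower in juveniles and 2 higher (15.4% and 17.8% of all transcripts), and DESeq2 1.42.0 called 45 and 2 (18.5% and 21.1%). Other alternatives were 3 other scalings, a pseudocount of 10, other filters, only juveniles and males, a replicate block, and leaving out each fish. Scripts were tested on simulated data.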

Additional observations from a re-analysis of the deposited data

How the results depend on the processing

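Of 510 values of single called transcripts under the alternatives, 414 kept their call, 96 lost it and 0 changed sign. Against 31 transcripts called lower in juveniles, 27 to 45 were called under other scalings, filters, a pseudocount of 10, edgeR and DESeq2 (27 to 31 of them among the 31), 10 with only juveniles and males fitted by limma (all 10 among the 31), and 17 to 45 without 1 fish (14 to 26 among the 31). The share of all transcripts tested that was called lower moved with the setting too. It was 19.6% with TMM, 15.2% with median of ratios on the table and 30.0% with the table total. It was 15.6% with a pseudocount of 10, 15.8% with no filter, 15.4% by edgeR and 18.5% by DESeq2. With only juveniles and males fitted it was 12.4%. The filter on the 4 males and juveniles kept 61 of the 79, with 32 lower against 17.4%. Each fit without 1 female tested 76 of the 79, with a median log2 fold change of -1.89 against 0.17 over all transcripts tested. In every fit without 1 fish, the share of all transcripts called lower was below the 16.2% of the fit with all fish. Those fits leave 1 fish in a group, so their counts are not read further. The 1 called higher became 0 with only juveniles and males (1 at an unadjusted p under 0.05 by limma), against 15.7% of all transcripts tested. By edgeR and by DESeq2 it became 2, against 17.8% and 21.1%. It stayed 1 under other scalings, filters and a pseudocount of 10, against 9.91% to 22.6%. Over the 16 alternatives, the log2 fold change of MSTRG.6463.1 was between 1.89, without male 2, and 3.81, without male 1. The number called higher also grew without male 1 and fell without either juvenile, in fits that leave 1 fish in a group. The share of all transcripts called higher fell in each of these fits, so the change in number is not read further. The median log2 fold change was -3.02 to -1.04 without 1 fish, -1.10 with a pseudocount of 10 and -2.31 to -1.79 under other scalings. With a replicate block of the adult numbers, 30 were lower (27 among the 31), 1 was higher and the median was -1.83, against 14.9% and 17.1% of all transcripts lower and higher. Same-numbered adults did not deviate together over the table (r = -0.0424 across 13748 transcripts, which are not independent). With 1 difference between females and 1 between males, this cannot tell whether same-numbered fish were handled together. Scaling moved the median log2 fold change of all transcripts from 0.11 to -0.01 (TMM), 0.19 (median of ratios on the table) and -0.34 (table total). It moved females against males more, by -0.571 (TMM), -0.586 (median of ratios on the table) and -0.804 (table total) on the log2 scale. The male levels as a percent of the female mean would rise with these shifts. Those percents and the ratio used to choose the transcripts were taken on the deposited scaling only. With the table total, 30.0% of all transcripts were lower in juveniles and 9.91% higher, and 41 and 1 of the 79. The female share, 9.19%, was 9.37% with a female minimum of 1000 (99 transcripts), 8.46% with a ratio of 100 (62 transcripts), 9.22% with no minimum for the highest other fish (81 transcripts) and 9.13% to 9.26% without 1 female. The median ratio of female 1 to female 2, 0.93, was 0.956 with TMM and 0.976 with the table total. The median ratio of male 1 to male 2 was 2.81 over the 66 transcripts above 5 in both males, a choice made after seeing the data. The causes of these shifts were not tested. In the juveniles, 27 and 20 of the 79 rested on 3 reads or fewer, with more reads in the table than in either male.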
